A study of Gallus gallus with 5 samples.

Results

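Developmental transcription factor genes were read on 5 one-colour oligonucleotide arrays of DT40, a chicken B cell line derived from a bursal lymphoma. The genes were taken by name: every gene whose symbol begins HOXA, HOXB, HOXC, HOXD, MEIS, SOX, PAX, TBX, LHX, NKX, IRX, DLX or FOX and carries a number, with the sine oculis homeobox genes and without PAX5 and FOXM1. This gave 73 of the 5382 genes that could be named on the array, read by 133 probes, with 1 probe per gene, the one with the highest mean log2 processed signal over the 5 arrays. The arrays held RNA from wild-type cells of the line labelled cl18 (WT), from cells in which the genes of both H2A.Z isoforms were knocked out (DKO), and from 3 DKO lines with stable expression of H2A.Z.1, of the mutant 5KR-H2A.Z or of the mutant H2A-H2A.Z. These 3 are called the H2A.Z.1 line (DKO+H2A.Z.1 in the plots), the 5KR-H2A.Z line (DKO+5KR-H2A.Z in the plots) and the H2A-H2A.Z line (DKO+H2A-H2A.Z in the plots). All 5 cultures received 2 µg/ml tetracycline for 72 hours, which represses an H2A.Z.1 transgene controlled by that drug. Each line was a single culture on 1 array, so no difference below has a replicate check, an error or a p-value. Beyond the name cl18, whether a line came from a single clone is not stated. The array titled DKO carries, in its description and genotype field, the words of the line with H2A.Z.1. It is called DKO after its title.

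HOX genes lie in clusters and encode homeodomain proteins that set position along the body axis. Their order in a cluster follows the order of their expression domains in the embryo, and Polycomb complexes keep them silent where they are not used. MEIS proteins belong to the TALE class of homeodomain proteins, which bind DNA together with HOX and PBX proteins. The SOX, PAX, T-box, LIM homeobox, NKX, sine oculis (SIX3 and relatives), IRX, DLX and forkhead families direct the formation of particular organs. Most of these genes are best known outside the B lineage, while FOXO1, FOXP1 and SOX4 act in the development of lymphocytes. H2A.Z is a histone variant found at promoters, including those of developmental genes held silent or ready for use.

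The slide with WT and DKO also held the H2A.Z.1 line, and the 2 mutant lines shared the other slide. A contrast of a mutant line with any of the first 3 lines and a slide effect cannot be told apart. Between 29137 and 30574 of 43803 spots that are not controls were well above background, which is the scanner software's own flag, and none was saturated. Spots of the same probe on 1 array had a median SD of 0.0476 to 0.0648 on the log2 scale. H2AFZ, the targeted H2A.Z.1 gene, was lower in DKO than in WT by 27.0-fold on 1 of its probes and by 92.7-fold on the other, and in the H2A.Z.1 line it stood 33.4-fold and 89.2-fold below WT. H2AFZ in the H2A.Z.1 line was thus near its level in DKO, and whether these probes can read the added H2A.Z.1 was not tested. Of 13 named markers of B cells, 12 were well above background on all 5 arrays, among them PAX5, EBF1 and CD79B. The remaining marker was so on 4 arrays. Over all named genes, 76.4% were well above background on all 5.

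Most members were dim or not detectable, and the families differed in this. By the probe used, 34 of 73 members (46.6%) were well above background on all 5 arrays, 9 on some of them and 30 (41.1%) on none. Over all 5382 named genes the shares were 76.4% on all arrays and 16.6% on none. All 10 forkhead genes were well above background on every array. Of the 17 HOX genes, 4 were (HOXA4, HOXA7, HOXA11 and HOXB1), 4 were on 1 array each, and 9 were on none. No HOXC, HOXD or LHX gene was well above background on all arrays. Of the other families, the share well above background on every array was 6 of 11 SOX genes, 4 of 8 TBX genes, 3 of 6 NKX genes, 2 of 5 PAX genes, 2 of 3 sine oculis genes, and 1 gene each of MEIS, IRX and DLX. The members well above background on no array by the probe used were HOXA6, HOXA13, HOXB4, HOXB5, HOXB8, HOXC8, HOXD4, HOXD11, HOXD12, SOX1, SOX2, SOX8, SOX14, PAX2, PAX6, PAX9, TBX4, TBX18, TBX19, TBX20, LHX2, LHX3, LHX8, NKX2-3, NKX2-5, NKX2-6, SIX2, IRX4, DLX5 and DLX6. For these no level is given, and failure of the flag in 1 probe does not show that a gene was silent. A second probe for HOXD11 is described below. Apart from genes read in WT or DKO alone, given below, LHX9 passed in WT and the H2A-H2A.Z line, IRX2 in WT, DKO and the 5KR-H2A.Z line, and DLX3 on all arrays but that of the H2A.Z.1 line. LHX9 acts in gonad and limb, and DLX3 in skin and placenta.

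**Figure D1:**
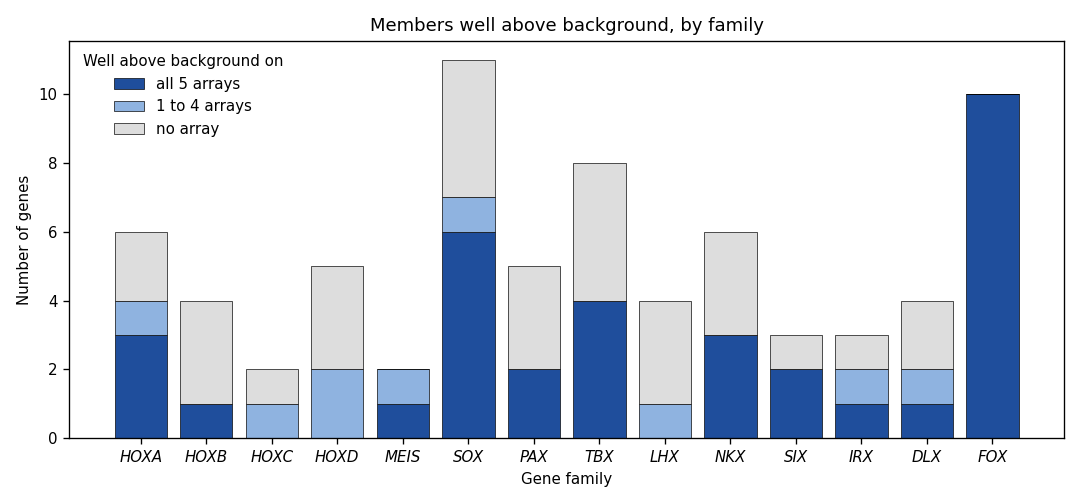
Number of member genes in each family (horizontal axis) whose probe was well above background on all 5 arrays, on 1 to 4 arrays, or on no array (stacked bars, counts of genes). All 10 FOX genes were above background throughout, while 9 of the 17 HOX genes were so on no array.

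Probes of the same gene often disagreed. Of the 34 members well above background on all arrays, 24 had more than 1 probe, and in 12 of these no other probe was well above background on any array. Among all named genes in the same position this held for 191 of 2999 (6.37%). The probe used is by rule the brightest of its gene, and the members were dimmer than most genes. A share over dim genes alone was not taken, so the part of dimness in this contrast was not tested. The 12 members were HOXA11, HOXB1, SOX3, SOX9, SOX10, PAX7, TBX3, TBX6, TBX22, NKX3-2, FOXA2 and FOXD3, and the signal of each rested on 1 probe. Every probe was well above background on every array for HOXA4, MEIS2, PAX3, DLX1, FOXN2 and FOXO1. The stretch of transcript that each probe reads was not known.

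In the following, a level is the log2 processed signal minus the 75th percentile of its array, and a difference is between such levels. A member was compared where its probe passed that background flag on 1 or both arrays of the pair. Where every probe of the gene failed the flag on the dimmer array, the difference is a bound, taken against the dimmest signal on that array to pass, or against the probe itself if that was higher.

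HOXA4 (NM_001030346) differed most between DKO and WT among members whose probe used was well above background on both arrays. The size of the HOXA2 difference, given below as a bound, is not known. It belongs to the anterior part of the HOXA cluster. Its processed signal was 399 in WT, 52.7 in DKO, 555 in the H2A.Z.1 line, 354 in the 5KR-H2A.Z line and 604 in the H2A-H2A.Z line. After scaling, the levels in the same order were -1.87, -4.40, -1.49, -1.93 and -1.30. DKO alone was low, and the other 4 lines lay within 0.63 of each other. HOXA4 was 5.80-fold lower in DKO than in WT and 7.54-fold higher in the H2A.Z.1 line than in DKO. Across slides it was 5.55-fold higher in the 5KR-H2A.Z line and 8.62-fold higher in the H2A-H2A.Z line than in DKO. The second probe showed the same order with smaller differences, 2.64-fold lower in DKO than in WT and 2.76-fold higher in the H2A.Z.1 line than in DKO. Both differences of HOXA4 stayed past 2-fold under all 10 other processing settings, and on the log2 scale they ran from -3.03 to -1.69 and from 1.95 to 3.46. Among these settings, the background filters could not move HOXA4, since its probe passed on every array.

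The MEIS genes, whose products bind DNA with HOX proteins, differed in how well they could be read. MEIS2 (NM_204803) stood at -3.06 in WT, -4.40 in DKO, -3.16 in the H2A.Z.1 line, -3.51 in the 5KR-H2A.Z line and -2.92 in the H2A-H2A.Z line. Again DKO was the lowest array. MEIS2 was 2.54-fold lower in DKO than in WT, and 4.67-fold on its second probe. It was 2.36-fold higher in the H2A.Z.1 line than in DKO, and 3.09-fold on the second probe. Each difference was past 2-fold in 9 of 10 other settings, of which the background filters could not move MEIS2 either. MEIS1, a regulator of blood stem cells, was well above background in WT alone, at -6.82. Its measured value was -8.95 in DKO and -7.04, -7.20 and -7.61 in the lines with H2A.Z.1, 5KR-H2A.Z and H2A-H2A.Z. Its bound put DKO at least 1.08-fold below WT, so its size there is not known.

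DLX1, a regulator of the developing forebrain, was also lowest in DKO on the probe used. DLX1 (NM_001045842) had levels of -3.06 in WT, -4.17 in DKO, -2.66 in the H2A.Z.1 line, -3.58 in the 5KR-H2A.Z line and -3.07 in the H2A-H2A.Z line. It was 2.15-fold lower in DKO than in WT and 2.85-fold higher in the H2A.Z.1 line than in DKO. The other DLX1 probe, well above background on all arrays, did not share this: its differences were -0.20 and -0.09 on the log2 scale. The lower level in DKO was past 2-fold in 6 of 10 other settings. Among these, the background filters could not move it, since the probe used passed on every array. It fell short after normexp background correction, quantile normalization and median centring, and with the median over probes.

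HOXA2, which patterns the hindbrain and second pharyngeal arch, stood apart in WT. It was well above background in WT alone, at -5.81, and its measured values in the other 4 lines were between -9.30 and -8.92. Relative to WT it was at least 2.17-fold lower in DKO, at least 2.79-fold in the H2A.Z.1 line, at least 2.12-fold in the 5KR-H2A.Z line and at least 2.46-fold in the H2A-H2A.Z line. Its second probe was well above background on no array. The difference between DKO and WT was past 2-fold in 5 of 9 other settings. Besides HOXA2 and MEIS1, the members well above background in WT alone were HOXD8, HOXD13 and SOX5. These 5 made up 6.85% of the members, where 69 of all 5382 named genes (1.28%) were well above background in WT alone. The 2 shares are not alike, since most members were dim and no share was taken over dim genes alone. WT also had the most spots well above background, 30574, beside 29137 in DKO. HOXD8, HOXD13 and SOX5 stood at -6.87, -6.70 and -7.14 in WT, close to the dimmest signal that passed the background flag there, at -7.20. Their bounds for DKO minus WT were 1.04-fold for HOXD8 and 1.17-fold for HOXD13, and SOX5 gave none.

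Members higher in DKO than on the other 4 arrays also came from the HOX clusters. HOXA7, a gene of the trunk, stood at -5.46 in WT, -4.36 in DKO, -5.25 in the H2A.Z.1 line, -4.90 in the 5KR-H2A.Z line and -5.19 in the H2A-H2A.Z line. DKO was the highest array, 2.15-fold above WT, and the H2A.Z.1 line lay 0.89 below DKO on the log2 scale. HOXA7 was read by 1 probe, well above background on every array, so settings on filters and probe choice could not move it. Those included, it was past 2-fold for DKO minus WT in 7 of 10 other settings. It fell short after normexp background correction, with spike-in scaling and in the authors' deposited table, down to 0.61 on the log2 scale. HOXB1, a gene of the hindbrain, stood at -2.16 in WT, -1.31 in DKO, -2.24 in the H2A.Z.1 line, -1.97 in the 5KR-H2A.Z line and -2.08 in the H2A-H2A.Z line, with DKO again the highest and under 2-fold. Its other probe was well above background on no array. HOXC9, also a gene of the trunk, was well above background in DKO alone, at least 1.79-fold above WT and at least 1.91-fold above the H2A.Z.1 line. HOXA11, a limb gene, differed between no arrays by more than 0.12 with the scaling used. Over the other settings its DKO minus WT difference ran from -0.45 to 0.35. That of the H2A.Z.1 line minus DKO ran from -0.64 to 0.55. Thus within the HOXA cluster HOXA4 was lower in DKO and HOXA7 higher. In the gene table HOXA5, not named on this array, and HOXA6, well above background on no array, lie between them.

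**Figure D2:**
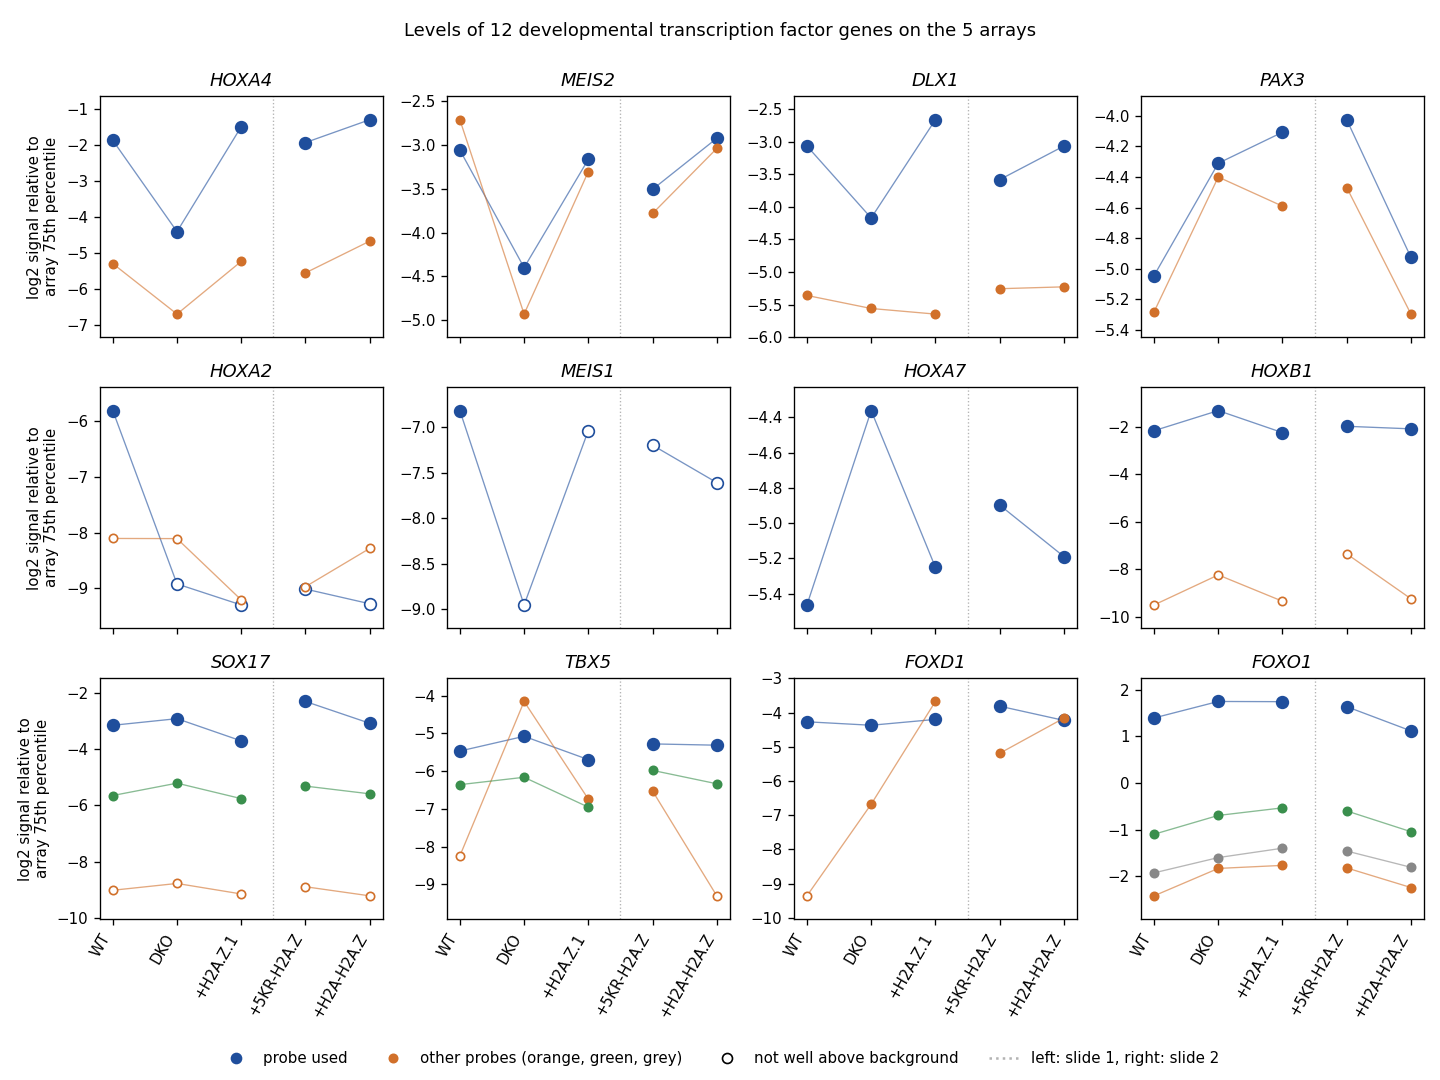
Levels (vertical axes, log2 processed signal relative to the 75th percentile of the array; each panel has its own range) of 12 genes on the 5 arrays (horizontal axes), with each probe of a gene as 1 set of joined points. Blue marks the probe used, other colours the other probes, open circles a probe not well above background, and the dotted line separates the slides. HOXA4 and MEIS2 were lowest in DKO on both of their probes, HOXA7 and HOXB1 were highest in DKO on the probe used, and the probes of TBX5 and FOXD1 ran differently from each other.

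Counted together, the members differed between DKO and WT about as often as other genes. Of 43 members compared, 1 was higher in DKO by 2-fold or more (HOXA7) and 5 were lower by as much (among them HOXA4, MEIS2, HOXA2 and DLX1), in all 14.0%, where 13.7% of 4400 named genes were at least 2-fold apart. Over all genes 3.95% were higher and 9.77% lower. Dim genes differed more often: 35 of the 43 members lay among the dimmest 25% of the genes compared, where 23.3% were at least 2-fold apart, and 4 of those 35 members were. The median difference was 0.17 over the members and 0.15 over all genes. Scaling to spike-in probes moved every measured difference of DKO minus WT by -0.50 and of the H2A.Z.1 line minus DKO by 0.54, so small differences could change direction. Just inside the threshold stood HOXA7 at 1.10, and just outside it HOXB1 at 0.85 and HOXC9 at a bound of 0.84. PAX3 (0.73), NKX2-1 (0.64) and SIX3 (0.57) came next on the higher side, though SIX3 in WT was close to the dimmest signal that passed. PAX3 acts in neural crest and muscle, NKX2-1 in thyroid and lung, and SIX3 in forebrain and eye. On the lower side no measured member lay between NKX3-2 at -0.37 and DLX1 at -1.11.

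**Figure D3:**
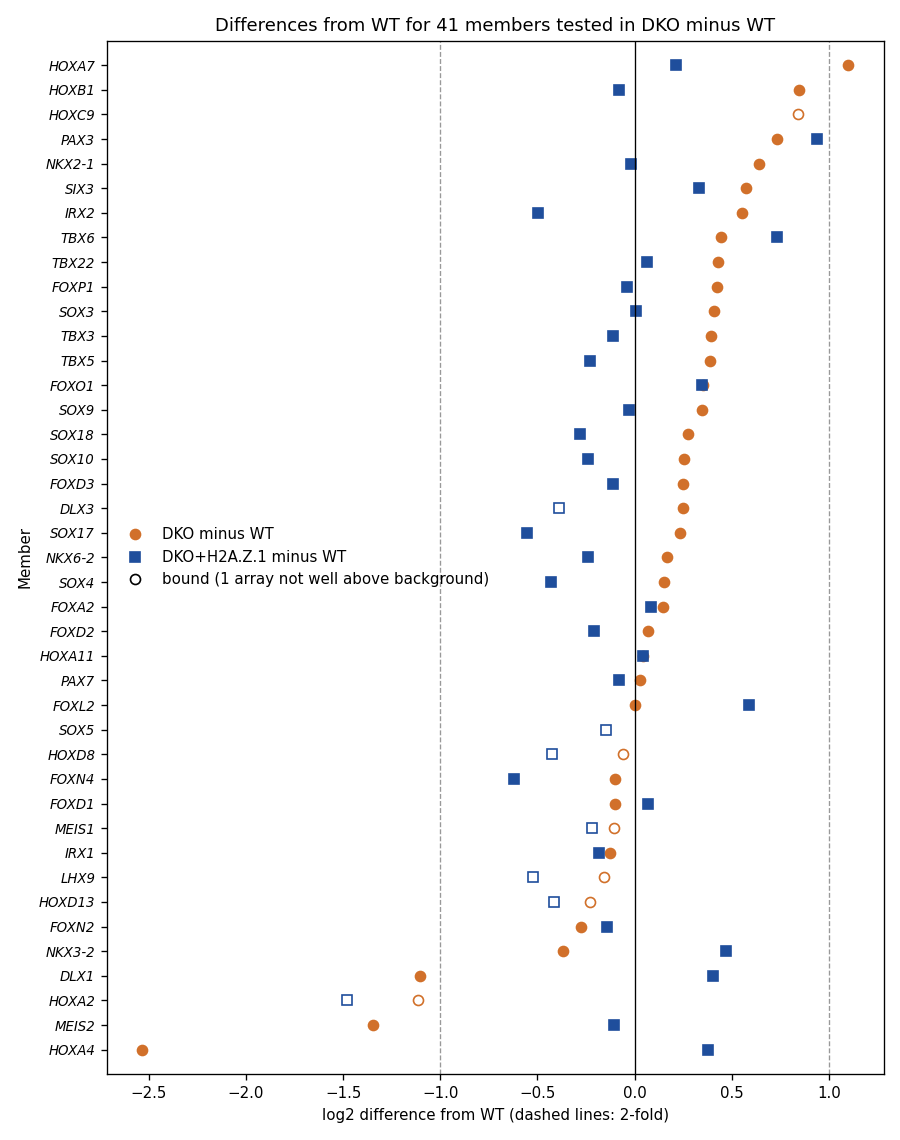
Log2 difference from WT (horizontal axis) of members compared in DKO minus WT (vertical axis, ordered by that difference), with circles for DKO and squares for the H2A.Z.1 line. Open symbols are bounds and dashed lines mark 2-fold. SOX5, for which no bound could be given in DKO minus WT, has a square alone. HOXA4, MEIS2 and DLX1 lie low in DKO and near or above 0 in the H2A.Z.1 line, while HOXA2 lies low in both.

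The line labelled as expressing H2A.Z.1 was compared with DKO, which is the same DKO array as in the comparison with WT. HOXA4, MEIS2 and DLX1 were higher in the H2A.Z.1 line by 2-fold or more and IRX2 was 2.07-fold lower on the probe used, which was not well above background in the H2A.Z.1 line, 4 of 37 members compared or 10.8%, beside 9.78% of 4334 genes, of which 7.38% were higher and 2.4% lower. IRX2, a homeobox gene of neural and limb tissue, was opposed by another of its probes, as given below. Under 2-fold but over 0.8 on the log2 scale, NKX3-2 (0.84) was higher, and HOXB1 (-0.93), HOXC9 (a bound of -0.93) and HOXA7 (-0.89) were lower. The median was -0.36 over the members and -0.21 over all genes. The H2A.Z.1 line minus WT left 1 of 42 members at least 2-fold apart, HOXA2, or 2.38%, beside 4.61% of 4408 genes. PAX3 was 0.94 higher there, TBX6, a gene of paraxial mesoderm, 0.73 higher, and FOXN4 0.62 lower. PAX3 on its second probe was 0.69 higher in the H2A.Z.1 line than in WT and 0.88 higher in DKO.

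For the 6 members past the threshold in DKO minus WT, the position of each complemented line was taken between DKO (0) and WT (1). These 2 arrays also chose the genes. HOXA2 was well above background in WT alone, so its positions rest on signals that failed the flag. The positions of DLX1 are those of the probe used, and its other probe did not share the lower level in DKO. In the H2A.Z.1 line, HOXA4 lay at 1.15, MEIS2 at 0.92, DLX1 at 1.36 and HOXA7 at 0.81, while HOXA2 lay at -0.12. In all, 5 of the 6 were nearer WT than DKO. In the H2A-H2A.Z line, across slides, the positions were 1.23 for HOXA4, 1.10 for MEIS2, 1.00 for DLX1, 0.75 for HOXA7 and -0.11 for HOXA2, again 5 of 6 nearer WT. In the 5KR-H2A.Z line, across slides, they were 0.98 for HOXA4, 0.67 for MEIS2, 0.53 for DLX1, 0.49 for HOXA7 and -0.03 for HOXA2, with 4 of 6 nearer WT. HOXA4, MEIS2, DLX1 and HOXA7 each stood at a lower position in the 5KR-H2A.Z line than in the H2A-H2A.Z line. Of all 604 named genes past the threshold in DKO minus WT, 70.4% were nearer WT in the H2A.Z.1 line, 64.7% in the 5KR-H2A.Z line and 83.9% in the H2A-H2A.Z line.

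Few members were past 2-fold between the mutant lines, or between these and the H2A.Z.1 line. Between the 5KR-H2A.Z line and the H2A-H2A.Z line, on the same slide, none of 37 members was at least 2-fold apart, beside 3.0% of 4360 genes. The largest differences were PAX3, 0.90 higher in the 5KR-H2A.Z line, SIX3, 0.81 higher, SOX17, 0.78 higher, and HOXA4, 0.63 lower. MEIS2 (-0.58) and DLX1 (-0.52) were lower too, and FOXO1 was 0.52 higher. Across slides, the H2A-H2A.Z line minus the H2A.Z.1 line had none of 36 members at least 2-fold apart, beside 2.06% of 4365 genes. The 5KR-H2A.Z line minus the H2A.Z.1 line had 1 of 36, SOX17, beside 1.98% of 4337 genes. SOX17, a gene of endoderm and blood vessels, stood at -3.15 in WT, -2.91 in DKO, -3.70 in the H2A.Z.1 line, -2.30 in the 5KR-H2A.Z line and -3.08 in the H2A-H2A.Z line. It was lowest with H2A.Z.1 and highest with 5KR-H2A.Z, 2.64-fold apart on the probe used. Another SOX17 probe gave 0.45 on the log2 scale, and the remaining probe was well above background on no array. Against DKO, also across slides, 1 of 37 members (2.7%) was past 2-fold in the 5KR-H2A.Z line, HOXA4, beside 7.57% of all genes, and 4 of 38 (10.5%) were in the H2A-H2A.Z line (HOXA4, MEIS2 and DLX1 among them), beside 12.4%. Against WT, 3 of 42 (7.14%) were past 2-fold in the 5KR-H2A.Z line (HOXA2, PAX3 and SIX3), beside 5.06%, and 1 of 42, HOXA2, was in the H2A-H2A.Z line, beside 2.89%. The median difference of the 5KR-H2A.Z line minus the H2A.Z.1 line was 0.30 over members and 0.08 over all genes.

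Which array was lowest or highest also differed between the members and all genes. Among the 34 members on all 5 arrays, 14 (41.2%) were lowest in the H2A.Z.1 line, 13 (38.2%) were highest in the 5KR-H2A.Z line and 13 were highest in DKO. Among all 4114 genes on all arrays, 25.6% were lowest in the H2A.Z.1 line, 15.1% highest in the 5KR-H2A.Z line and 48.0% highest in DKO. In the dimmest 25% of those genes the shares were 30.7%, 27.4% and 27.5%. With spike-in scaling 5 of the 34 members were lowest in the H2A.Z.1 line, 8 highest in the 5KR-H2A.Z line, 2 highest in DKO and 19 lowest in DKO. The same counts were 10, 16, 7 and 12 in the authors' deposited table. No shares over all genes are given for either scaling, so these counts describe the scaling and not the members. Spike-in scaling lowers every gene in DKO relative to the other arrays, member or not. The part of the slide and of the dimness of the probes in this pattern was not tested. The range over the 5 arrays was under 2-fold for 26 of the 34 members (76.5%) and for 82.8% of all genes, with medians of 0.64 and 0.54 on the log2 scale.

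**Figure D4:**
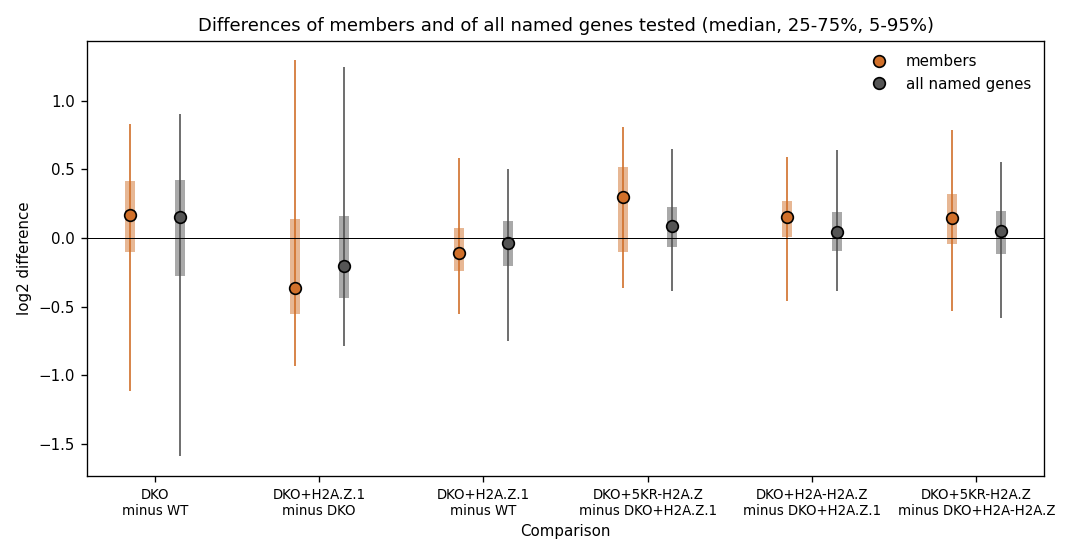
Log2 differences (vertical axis) in the 6 comparisons (horizontal axis) for the members compared (orange) and all named genes compared (grey), as the median (point), the 25% to 75% range (thick bar) and the 5% to 95% range (line). The medians of members and of all genes were 0.17 and 0.15 for DKO minus WT, -0.36 and -0.21 for the H2A.Z.1 line minus DKO, and 0.30 and 0.08 for the 5KR-H2A.Z line minus the H2A.Z.1 line.

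Several large differences lay on probes that were not the brightest of their gene, and these were singled out after their values were seen. For FOXD1, a forkhead gene of kidney stroma and retina, probe A_87_P009068 was not well above background in WT (-9.36) and stood at -6.68 in DKO, -3.68 in the H2A.Z.1 line, -5.19 in the 5KR-H2A.Z line and -4.16 in the H2A-H2A.Z line. WT was the lowest array. On this probe the H2A.Z.1 line was 8.02-fold above DKO and at least 11.5-fold above WT. The 5KR-H2A.Z line was 2.04-fold below the H2A-H2A.Z line on the same slide. The probe used for FOXD1 showed none of this, with levels from -4.37 in DKO to -3.81 in the 5KR-H2A.Z line. For TBX5, a gene of heart and forelimb, probe A_87_P017842 stood at -4.16 in DKO, -6.74 in the H2A.Z.1 line and -6.53 in the 5KR-H2A.Z line, and was not well above background in WT (-8.25) or the H2A-H2A.Z line (-9.30). DKO was the highest array, at least 8.24-fold above WT and 6.01-fold above the H2A.Z.1 line. The other TBX5 probes differed by 0.39 and 0.20 between DKO and WT on the log2 scale.

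Probe A_87_P037503 for IRX2 and probe A_87_P055721 for HOXD11, a gene of limb and trunk, were well above background in the H2A.Z.1 line alone. The IRX2 probe was at least 2.05-fold above DKO there, where the probe used for IRX2 was at least 2.07-fold below DKO. The HOXD11 probe was at least 2.17-fold above WT. Probe A_87_P091222 for FOXN4, a gene of retina and spinal cord, was well above background in the H2A-H2A.Z line alone, at least 2.36-fold above the 5KR-H2A.Z line. Read probe by probe, 9 of 57 member probes (15.8%) were past 2-fold for DKO minus WT, beside 12.7% of 9593 named probes. For the H2A.Z.1 line minus DKO they were 9 of 53 (17.0%), beside 9.06% of 9465, and for the H2A.Z.1 line minus WT 4 of 58 (6.9%), beside 3.87%. Against the H2A.Z.1 line, 3 of 52 (5.77%) were apart in the 5KR-H2A.Z line, beside 1.41%, and 3 of 53 (5.66%) in the H2A-H2A.Z line, beside 1.91%. Between the mutant lines, 2 of 51 (3.92%) were, beside 2.4%. Probes of 1 gene are not independent of each other. Most members compared were dim, and no share over dim probes alone was taken. Gene by gene, on the probe used, the dimmest 25% of genes compared had shares of 23.3%, 17.7%, 13.5%, 6.91%, 6.59% and 9.45% in these 6 comparisons, in the same order.

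Forkhead and SOX genes with known roles in lymphocytes stayed under 2-fold. FOXO1, which drives early B cell genes and is held back by AKT, stood at 1.40 in WT, 1.75 in DKO and in the H2A.Z.1 line, 1.64 in the 5KR-H2A.Z line and 1.12 in the H2A-H2A.Z line. It was highest in DKO and the H2A.Z.1 line, and no pair of arrays was 2-fold apart. All 4 FOXO1 probes were higher in DKO than in WT, by 0.33 to 0.59 on the log2 scale, but with spike-in scaling 3 of them were lower and the probe used stood at -0.14. FOXP1, needed for early B cells, had levels from -2.83 to -2.29 and was highest in DKO, but its difference from WT turned from 0.42 to -0.07 with spike-in scaling. SOX4, a factor of B and T cell progenitors, had levels from -0.17 to 0.51, also highest in DKO, where its difference from WT turned from 0.15 to -0.34 with spike-in scaling and to -0.04 in the authors' deposited table. FOXD2 and FOXN2 had levels from -0.33 to 0.18 and from -0.09 to 0.18. PAX5, left out of the count as the factor that keeps B cell identity, differed by -0.13 between DKO and WT on the log2 scale.

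The members of the organ families that stayed under 2-fold in all 6 comparisons on the probe used were spread over tissues. SOX3 (neural progenitors), SOX9 (cartilage), SOX10 (neural crest) and SOX18 (vessels) were each higher in DKO than in WT, by 0.25 to 0.41, and lower in the H2A.Z.1 line than in DKO, by 0.37 to 0.56 in size. With spike-in scaling all 4 were lower in DKO than in WT, and SOX3, SOX9 and SOX10 were higher in the H2A.Z.1 line than in DKO. TBX3, TBX5 and TBX22 were higher in DKO than in WT by 0.39 to 0.43 and lower in the H2A.Z.1 line than in DKO by 0.36 to 0.62 in size, while TBX6 was higher in both comparisons (0.45 and 0.29). With spike-in scaling these 4 T-box genes were lower in DKO than in WT, TBX6 at -0.05, and TBX3 and TBX22 were higher in the H2A.Z.1 line than in DKO. NKX3-2, a gene of the somite and jaw joint, went the other way from NKX2-1, 0.37 below WT in DKO. IRX1 and PAX7 lay within 0.13 of WT in DKO. FOXL2, the ovarian forkhead gene, stood at -4.85 in both DKO and WT and was 0.59 higher in the H2A.Z.1 line. On the probe used, SIX3 and PAX3, both compared across slides, were 2.07-fold and 2.03-fold higher in the 5KR-H2A.Z line than in WT. With spike-in scaling they were 0.83 and 0.80 higher on the log2 scale. The other PAX3 probe was under 2-fold in this comparison. SIX3, read by 1 probe, stood at -7.10 in WT, close to the dimmest signal that passed the background flag there, at -7.20.

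Genes whose products work with these families, or keep them silent or active, were read as lists. These lists followed textbook roles and were chosen with earlier results of these data known. Only part of each list could be named on the array. The numbers were 4 of 8 TALE partners, 3 of 6 sine oculis partners, 6 of 10 LIM cofactors and 1 of 6 Groucho co-repressors. They were 11 of 30 Polycomb genes, 11 of 24 Trithorax genes and HOX activators, and 15 of 29 genes of the FOXO list. The counts and medians below do not cover the rest. Partners of HOX proteins of the TALE class (PBX3, PKNOX2 and TGIF1 among them) had none of 4 genes past 2-fold for DKO minus WT, with a median of 0.31. Of 5 LIM cofactors compared, LMO2, a partner of LIM factors in blood cells, was lower in DKO (-1.86) and stayed low in the H2A.Z.1 line (-2.29 relative to WT). EYA2, a partner of sine oculis proteins, differed by -0.71, and the Groucho co-repressor TLE4 by 0.93. Of 11 Polycomb genes, which silence HOX clusters, 1 was at least 2-fold lower: PHC1, a subunit of Polycomb repressive complex 1, was 1.15 lower in DKO than in WT on the log2 scale, at least 2-fold on 4 of its 5 probes, and 1.23 higher in the H2A.Z.1 line than in DKO. The Polycomb median was 0.06. Of 8 Trithorax genes and HOX activators none was 2-fold apart (median 0.12). In the FOXO list, 1 of 12 was, PCK2, an enzyme of glucose production, 1.14 higher. These counts stand beside the 13.7% of all genes given above.

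Markers of other cell types were read beside these genes, since HOX, MEIS and LMO genes are also active in other blood cells. Between DKO and WT, differences of 2-fold or more were found in 1 of 7 T cell markers (CD3E, higher), 2 of 6 myeloid markers (TLR4 and CD14, lower), 1 of 4 erythroid markers (LMO2, lower), 1 of 4 mesenchymal markers (COL1A2, higher) and the 1 neural or epithelial marker compared (CDH2, lower). Over all named genes the share was 13.7%. In the H2A.Z.1 line minus DKO, 1 of 6 T cell markers was at least 2-fold apart, CD247, which was lower. None of 5 myeloid, 4 erythroid or 5 mesenchymal markers was, beside 9.78% of all genes. The markers named for DKO minus WT stayed past 2-fold from WT in the H2A.Z.1 line. On the log2 scale CD3E stood at 3.41, COL1A2 at 2.29, TLR4 at -2.04 and LMO2 at -2.29. CD14 and CDH2 had bounds of -1.63 and -4.25. CD4, TAL1, GYPC, DCN, PDGFRA, THY1, CDH1 and EPCAM were well above background on no array. Other markers were so on all 5 arrays: 6 of 8 for T cells, 4 of 7 myeloid and 4 of 6 erythroid. The same held for 3 of 8 mesenchymal and 0 of 3 neural or epithelial markers, beside 76.4% of all named genes. Of the B cell markers, 12 of 13 were well above background on all 5 arrays. Markers of other blood cells were thus detected too, and detection of a single marker does not identify B cells here. The median level in WT was 2.06 over the B cell markers. It was -5.67 for T cell, -4.78 for myeloid, -5.55 for erythroid, -7.03 for mesenchymal and -8.51 for neural or epithelial markers. Single markers lay far from these medians. In WT the T cell markers CD3D and CD247 stood at 6.38 and 0.10, and the B cell marker CD79B at 6.53. The part of these markers in the differences of HOXA4, MEIS2 and DLX1 was not tested. In RNA of whole cultures, fewer cells that express a gene and less RNA per cell cannot be told apart.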

How the data were processed

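RNA of 5 cultures was labelled with cyanine 3, 1 array each, per the labels' protocols. The scanner software was Agilent Feature Extraction 11.5.1.1, as its header states. Each deposited scanner file gives, per the file headers, the processed signal of every spot, a linear intensity from which background has been taken off, beside raw medians and flags. In the authors' value table that intensity is multiplied by a single factor per array (1.03 to 1.23, read from spots of 1000 or more). That table is linear and not centred, with column medians of 92.1 to 121.7, and the origin of the factor is unknown.

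The log2 processed signal was centred on each array's 75th percentile over spots other than controls. Outlier spots, 2 to 37 per array, were dropped and repeated spots averaged. For want of a gene name column, probes took their names from RefSeq accessions, looked up in a GRCg7b gene table (11935 of 43603 probes). The array annotation follows galGal3, and coordinates were therefore left out. Without replicates nothing was tested: 2-fold served as the threshold, and the number of arrays limits the precision. The members and lists were chosen with earlier results of these data known. Genes named were all HOX genes, members past 2-fold or above background on some arrays, the 12 brightest members, those next to the threshold, and up to 4 genes per list past 2-fold. Other members illustrate their family. Some members and list genes are counted but not reported here. The steps were tested on simulated data. Alternatives covered background correction, scaling, filters, probe choice and threshold. Software was Python 3.11.15, numpy 2.4.6 and pandas 2.3.3, with limma 3.58.1 (R 4.3.3) for normexp, quantile and loess.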

Additional observations from a re-analysis of the deposited data

How the results depend on the processing

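The number of members at least 2-fold apart was 6 for DKO minus WT, 4 for the H2A.Z.1 line minus DKO, 1 for the H2A.Z.1 line minus WT, 1 for the 5KR-H2A.Z line minus the H2A.Z.1 line, and 0 for the H2A-H2A.Z line minus the H2A.Z.1 line and for the 5KR-H2A.Z line minus the H2A-H2A.Z line. In that order, for the first 3, the counts were 2, 1 and 0 after normexp background correction (offset 50), which damps dim probes. The members compared were 43, 37 and 42, and over all genes the shares were 8.59%, 5.54% and 2.2%. Here the 2 members apart between DKO and WT, HOXA4 among them, lay nearer WT in all 3 complemented lines (2, 2 and 2 members). With no filter on background the counts were 12, 12, 5, 4, 8 and 4 of 73 members. Over all genes the shares were then 15.3%, 11.2%, 7.23%, 4.24%, 4.44% and 5.41%. Without the filter, 9, 7 and 8 of 12 members lay nearer WT in the H2A.Z.1 line, the 5KR-H2A.Z line and the H2A-H2A.Z line. At a threshold of 1.5-fold the counts were 10, 14, 5, 9, 4 and 4 of 43, 37, 42, 36, 36 and 37 members. Over all genes the shares were 30.1%, 25.4%, 12.2%, 8.62%, 8.13% and 9.01%. At 1.5-fold, 9 of 10 members lay nearer WT in the H2A-H2A.Z line. At 3-fold the counts were 1, 1, 0 and 0 for the first 4, beside 6.41%, 3.67%, 2.2% and 0.484% of all genes. At 3-fold 1 member, HOXA4, was nearer WT in each line. Shares of all genes nearer WT are not given for these settings. The median over probes gave 2, 2, 2 and 3 of 43, 37, 38 and 37 members for the last 4 comparisons, beside 4.59%, 1.66%, 2.26% and 3.11% of all genes. Reading every probe on its own, an alternative chosen after seeing the data, gave 4, 3, 3 and 2 there. Median centring gave 7 of 37 members for the H2A.Z.1 line minus DKO, beside 9.48% of all genes. For the H2A.Z.1 line minus WT, cyclic loess gave 2 of 42, beside 4.65%, and the filter on every array compared 0 of 34, beside 3.44%. Spike-in scaling gave 2 of 36 for the 5KR-H2A.Z line minus the H2A.Z.1 line, beside 1.94%. IRX2 in the H2A.Z.1 line minus DKO turned from -1.05 to 0.94 with the median over its probes, which differ in direction.

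Scaling to 8 spike-in probes moved the median of all genes for DKO minus WT from 0.15 to -0.34 and that of members from 0.17 to -0.28, with 0 members higher and 5 lower. The split between higher and lower was 2 and 3 with quantile normalization, 3 and 2 with median centring, 0 and 5 in the authors' value table, and 4 and 3 with the median over probes. Of all genes past 2-fold, 92.5% were lower with spike-in scaling, and 69.0%, 54.9%, 83.4% and 70.4% in the other 4 settings, in that order. HOXA4 was lower in DKO than in WT, and higher in the H2A.Z.1 line than in DKO, past 2-fold in each of these. The median of the H2A.Z.1 line minus DKO ranged from -0.51 to 0.18 and that of the 5KR-H2A.Z line minus the H2A.Z.1 line from 0.03 to 0.39.

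No paired analysis was possible because each group has 1 array. Naming by RefSeq accession alone was not run as an alternative, since it is the naming used. Normexp was run on median spot intensity. Signal over background limits the dim members: the dimmest level that passed as above background was between -7.29 and -6.89, depending on the array.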
